A study of Mus musculus with 4 samples.

Results

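The subject is the cytosolic and mitochondrial heat shock chaperones Hspa8, Hsph1, Hspa4l, Dnajb1, Dnaja1, Hsp90aa1, Hsp90ab1, Hspa9, Hspd1 and Hspe1, followed in the nuclei of the mouse cerebral cortex with and without the creatine transporter (CrT). These are 10 of the 21933 genes counted, matched by symbol. They were selected on their unique molecular identifier (UMI) counts in CrT-KO against control libraries, so that contrast is given for them as a description, and nothing is supported by it.

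Heat shock chaperones bind unfolded or partly folded proteins, keep them from aggregating and release them to fold. HSP70 proteins do so in cycles of ATP binding and hydrolysis, which J proteins start by delivering the substrate and stimulating hydrolysis, and which nucleotide exchange factors, among them the HSP110 proteins, close by releasing ADP. HSP90 receives kinases, steroid hormone receptors and other clients from HSP70 for the last steps of their maturation, and mitochondria hold an HSP70 and a chaperonin of their own for imported proteins. In neurons the HSP70 machinery also uncoats clathrin-coated vesicles at synapses, and many of these genes are induced by heat shock factor binding to heat shock elements in their promoters.

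The 4 libraries of nuclei came from the right cerebral cortex of untreated adult male mice on a C57Bl/6J background, 2 control (CrT+/y) and 2 CrT-KO (CrT-/y), with 1 animal per library. CrT-/y males carry a deletion within Slc6a8, the X-linked creatine transporter gene, in every cell of the body, and the controls were wild-type male littermates, so the comparison asks which transcripts differ when the transporter is lost throughout the animal. The libraries held 8282 to 9295 nuclei and 51507483 to 65240843 UMIs, with a median of 5548.0 UMIs per nucleus in CrT-KO 2, the lowest, and 6700.5 in CrT-KO 1, the highest. After removal of 1236 predicted doublets, 33280 of 34458 nuclei fell into 7 named populations, and the 1178 nuclei of 4 clusters without a clear name were left out.

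Slc6a8, the targeted gene, was counted first as a check of the labels. In excitatory neurons it gave 6.59 and 5.56 CPM (UMIs per 1000000 UMIs of that population in that library) in controls 1 and 2, and 1.52 and 1.502 CPM in CrT-KO 1 and 2. In inhibitory neurons the same 4 libraries gave 6.71, 4.70, 1.71 and 1.09 CPM, and in oligodendrocytes (ODCs) 19.5, 17.8, 4.68 and 6.17 CPM. Both CrT-KO libraries were thus below both controls in these 3 populations, as labelled, although the count of a whole gene does not tell tags inside the deleted part from tags outside it. The defining markers were each highest in their own population: Slc17a7 averaged 122.8 CPM in excitatory neurons against at most 66.5 CPM elsewhere, Gad1 207.4 CPM in inhibitory neurons against at most 73.3, and Mbp 3233 CPM in ODCs against at most 83.8. These genes are in the lists that named the populations, so their order describes the naming and is no separate check of it. The libraries shared 96 cell barcodes in all. Sums over nuclei cannot tell fewer expressing nuclei from less RNA per nucleus.

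Of the 10 chaperone genes, 6 had an entry in the RefSeq promoter table (GRCm38.p6, 250 bases before each annotated start). Heat shock factors bind inverted repeats of the letters GAA, and here the 8-letter forms GAANNTTC and TTCNNGAA were searched, each of which reads the same on the opposite strand. They stood before at least 1 start of Hsph1, Dnaja1, Hspd1 and Hspe1, and before none of Hspa4l or Dnajb1. The same letters were present before 4218 of all 32851 starts (12.8%), that is before at least 1 start of 3932 of 27025 genes (14.5%), and in 12 of 56 other chaperone and co-chaperone genes with an entry (21.4%). The following 3 stretches of 30 bases are shown because they hold the densest matches of these 4 genes, with the matching letters in capitals. The first is at chr5:149636351-149636380 on the minus strand, the second at chr4:40722333-40722362 on the plus strand, and the third at chr1:55088053-55088082 on the plus strand.
Hsph1: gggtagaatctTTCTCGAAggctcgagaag
Dnaja1: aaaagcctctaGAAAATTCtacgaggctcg
Hspe1: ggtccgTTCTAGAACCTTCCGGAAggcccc
The third stretch carries 3 overlapping matches 66 to 95 bases before the start of Hspe1, which encodes HSP10. Read on the opposite strand it is also the stretch 121 to 150 bases before a start of Hspd1, which encodes HSP60, because these genes are transcribed away from each other from a shared promoter region. The Hsph1 stretch lies 15 to 44 bases and the Dnaja1 stretch 106 to 135 bases before a start, and all 3 stretches overlap an exon of another annotated transcript of Hsph1, Dnaja1 or Hspd1. A match is a description of the letters and not a measured binding site.

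Hspa8 encodes HSC70, the constitutive cytosolic HSP70 (ENSMUSG00000015656, chr9:40800984-40810087, GRCm38). In excitatory neurons it gave 689, 699, 559 and 325 UMIs in controls 1 and 2 and CrT-KO 1 and 2, or 19.5, 19.1, 12.9 and 9.39 CPM. The controls were close to each other, both CrT-KO libraries were lower, and CrT-KO 2 was the lowest, with a log2 fold change (CrT-KO minus control) of -0.74 ± 0.13 (SE, n = 2 per genotype). In inhibitory neurons the 4 values were 28.004, 23.5, 18.2 and 13.4 CPM, again without overlap and with CrT-KO 2 lowest, at -0.67 ± 0.14. In ODCs they were 50.3, 43.7, 36.3 and 24.1 CPM on 85, 98, 62 and 43 UMIs, the same order of libraries, at -0.65 ± 0.21. The 12 neuronal subclasses were cut from the same 4 libraries, so their orders are not independent of each other. The share of all genes with such an order was not computed in the subclasses, so their counts have no background here. Both CrT-KO libraries were below both controls in 12 of 12 for Hspa8, with log2 fold changes between -1.03 and -0.48. The largest was that of nuclei resembling layer 5 intratelencephalic neurons, at 23.1, 22.6, 12.3 and 9.41 CPM, and the smallest that of nuclei resembling medium spiny neurons, at 26.7, 21.0, 19.8 and 13.1 CPM. The latter are a striatal type, and 626, 593, 642 and 473 such nuclei were counted in libraries labelled cortex, out of 1881, 1836, 2073 and 1667 inhibitory nuclei.

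The HSP110 proteins release ADP from HSP70 and so reset it, and 2 of them are among the 10 genes. Hsph1 encodes HSP105 (ENSMUSG00000029657, chr5:149614287-149636376). It gave 32.4, 29.5, 20.9 and 21.3 CPM in excitatory neurons, 26.9, 28.6, 20.1 and 18.0 CPM in inhibitory neurons and 29.6, 42.4, 26.9 and 26.4 CPM in ODCs, in the order controls 1 and 2 and CrT-KO 1 and 2. Both CrT-KO libraries were below both controls in each of the 3 populations, narrowly so in ODCs against control 1, and the log2 fold changes were -0.51 ± 0.09, -0.52 ± 0.12 and -0.47 ± 0.23 (SE). Of the 12 neuronal subclasses, 11 had the same order, and the exception was the LAMP5-like nuclei, with 2 UMIs in control 1. Hspa4l encodes APG1, a relative of HSP105 (ENSMUSG00000025757, chr3:40744495-40796103), and it collected the most UMIs of the 10 genes in neurons. Its excitatory values of 75.0, 76.1, 72.1 and 68.5 CPM did not overlap between genotypes but were close, at -0.06 ± 0.07. Inhibitory neurons gave 91.3, 85.2, 76.1 and 74.6 CPM (-0.21 ± 0.09), and ODCs 39.7, 64.2, 37.4 and 37.0 CPM (-0.52 ± 0.22), where the difference came mostly from control 2. Within the neuronal subclasses only 5 of 12 had both CrT-KO libraries below both controls for Hspa4l.

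The J proteins start the HSP70 cycle. Dnajb1 encodes HSP40, the main cytosolic class B J protein (ENSMUSG00000005483, chr8:83608193-83612653), and was the least counted of the 10 genes. It gave 50, 65, 30 and 41 UMIs in excitatory neurons, which is 1.41, 1.77, 0.693 and 1.18 CPM, and 20, 19, 9 and 7 UMIs in inhibitory neurons. The libraries were ordered by genotype in both, at -0.74 ± 0.29 and -1.30 ± 0.45 (SE), and in ODCs 8, 5, 2 and 1 UMIs were too few for a fit. Dnaja1 encodes a class A J protein (ENSMUSG00000028410, chr4:40722150-40737149) and overlaps Smu1 in the annotation, so reads shared by the 2 genes are uncertain. Dnaja1 stood at 23.6, 26.3, 20.9 and 20.3 CPM in excitatory neurons, 26.4, 26.3, 22.8 and 22.02 CPM in inhibitory neurons, and 28.4, 29.4, 27.5 and 19.6 CPM in ODCs. These too were lower in both CrT-KO libraries, by small steps of -0.23 ± 0.10, -0.21 ± 0.12 and -0.32 ± 0.23.

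The HSP90 genes encode the stress-inducible alpha form (Hsp90aa1, ENSMUSG00000021270, chr12:110690605-110702728) and the constitutive beta form (Hsp90ab1, ENSMUSG00000023944, chr17:45567775-45573271), whose sequences are alike enough that reads could be shared. Hsp90ab1 gave 28.8, 28.5, 21.5 and 17.5 CPM in excitatory neurons, 39.6, 36.4, 24.7 and 17.9 CPM in inhibitory neurons and 62.7, 87.4, 41.5 and 51.6 CPM in ODCs. The genotypes did not overlap in any of the 3, CrT-KO 2 was lowest in both neuronal populations and CrT-KO 1 in ODCs. Log2 fold changes were -0.50 ± 0.10, -0.80 ± 0.12 and -0.72 ± 0.19 (SE). In the subclasses the order held in 12 of 12, from -1.05 ± 0.22 in PV-like nuclei, at 43.3, 40.6, 25.7 and 13.9 CPM, to -0.38 ± 0.14 in nuclei resembling layer 4/5 neurons, at 22.3, 23.0, 18.1 and 15.7 CPM. Hsp90aa1 was lower by -0.38 ± 0.11 in excitatory neurons (14.1, 14.7, 11.2 and 10.3 CPM), by -0.51 ± 0.15 in inhibitory neurons (18.7, 16.5, 13.7 and 10.5 CPM) and by -0.53 ± 0.23 in ODCs (31.4, 46.0, 29.8 and 25.2 CPM). Its genotypes were likewise apart in each of these, but in 8 of 12 subclasses only.

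**Figure D1:**
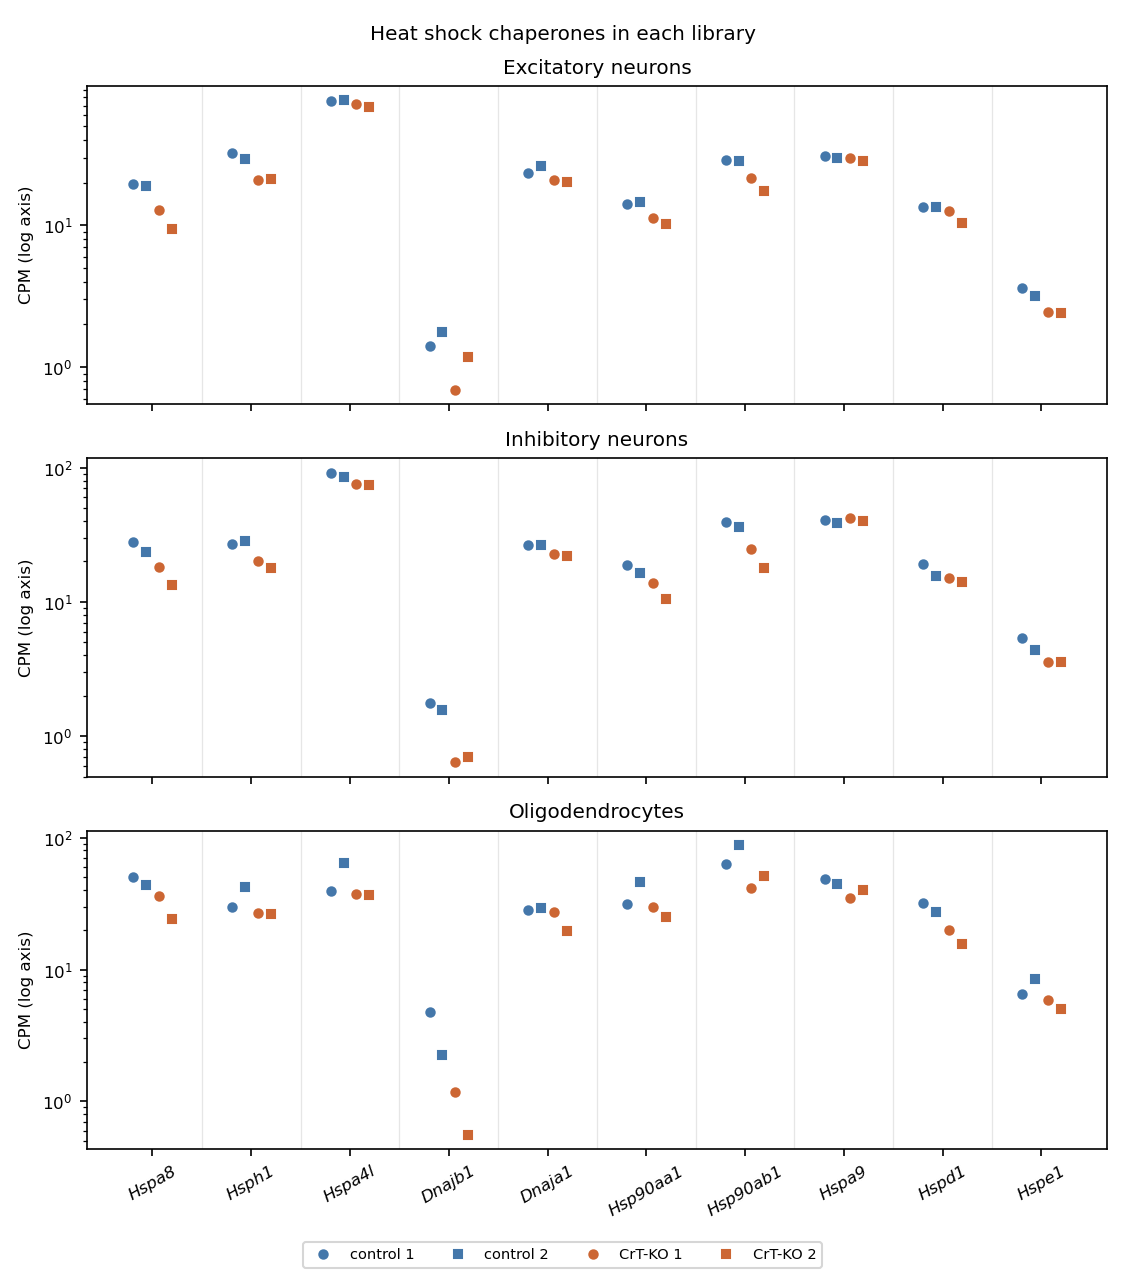
CPM (log axis) of the 10 chaperone genes in excitatory neurons, inhibitory neurons and oligodendrocytes, with 1 point per library (2 control, 2 CrT-KO). For Hspa8 and Hsp90ab1 both CrT-KO points lie below both control points in all 3 panels, whereas the 4 points of Hspa9 lie close together in the neuronal panels (28.5 to 30.9 CPM and 39.0 to 42.4 CPM).

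The mitochondrial chaperones fold proteins in the matrix, and among them Hspa9 was nearly level between genotypes in neurons. Hspa9 encodes mortalin, the mitochondrial HSP70 that pulls precursor proteins into the matrix (ENSMUSG00000024359, chromosome 18). It gave 30.9, 30.0, 30.0 and 28.5 CPM in excitatory neurons, with 40.9, 39.0, 42.4 and 40.1 CPM in inhibitory neurons. The genotypes lay close in both, at -0.01 ± 0.08 and 0.07 ± 0.10 (SE), with CrT-KO 1 the highest library of the inhibitory neurons. ODCs gave 48.5, 44.2, 35.1 and 40.4 CPM (-0.30 ± 0.18). Hspd1, for HSP60 (ENSMUSG00000025980, chr1:55077835-55088243), and Hspe1, for its lid HSP10 (ENSMUSG00000073676, chr1:55088132-55091307), form the chaperonin. Their annotations overlap on the side where both are first transcribed. Whether counting used the strand is not stated, so reads in the overlap are uncertain. Hspd1 was at 13.5, 13.5, 12.6 and 10.4 CPM in excitatory neurons, with 19.2, 15.7, 15.2 and 14.0 CPM in inhibitory neurons, small steps of -0.18 ± 0.12 and -0.23 ± 0.14. In ODCs it stood at 32.0, 27.2, 19.9 and 15.7 CPM, apart by genotype, at -0.74 ± 0.24. Hspe1 was sparse, at 3.62, 3.19, 2.45 and 2.43 CPM in excitatory neurons (-0.43 ± 0.18), 5.39, 4.37, 3.56 and 3.57 CPM in inhibitory neurons (-0.43 ± 0.25) and 9 to 19 UMIs per library in ODCs (-0.49 ± 0.41). Both CrT-KO libraries were below both controls in these 3 populations for both chaperonin genes, but in 7 of 12 neuronal subclasses only for each. The order was reversed in 1 subclass for Hspd1 and in 2 for Hspe1. Reads from processed pseudogenes of Hspa8, Hspd1 or Hspe1 could not be separated from those of the genes.

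**Figure D2:**
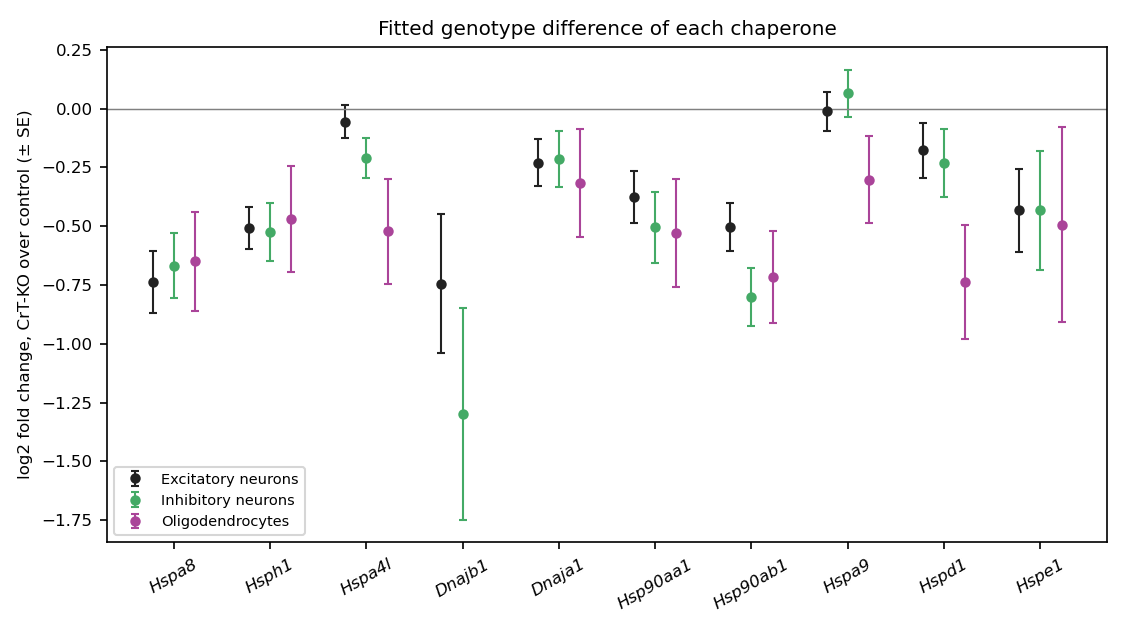
Log2 fold change (CrT-KO minus control, edgeR) ± SE of each chaperone gene in excitatory neurons, inhibitory neurons and oligodendrocytes, from 2 libraries per genotype. Hspa8 lies between -0.74 and -0.65 in the 3 populations, and Hspa9 between -0.30 and 0.07, while Dnajb1 has the widest bars and no value in oligodendrocytes.

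Counted over the 10 genes, both CrT-KO libraries were below both controls for 10 in excitatory neurons, 9 in inhibitory neurons and 10 in ODCs (9 of the 9 tested), with Hspa9 the exception in inhibitory neurons. Among all genes tested that share was 29.5% in excitatory neurons, 18.7% in inhibitory neurons and 17.1% in ODCs, and since the 10 were selected on this contrast nothing is read from the excess. The median log2 fold change of the chaperones was -0.40, -0.47 and -0.52, beside a median near 0 over all genes. The fit over all genes also makes calls, which for the chaperones repeat the contrast they were selected on and are printed beside the background only. At an adjusted p under 0.1 (edgeR, quasi-likelihood, Benjamini-Hochberg over all genes tested) Hspa8 and Hsph1 were called in excitatory neurons, where 0.193% of all genes were, and Hspa8 and Hsp90ab1 in inhibitory neurons, where 0.11% of all genes were. None of the 9 chaperones tested in ODCs was called by edgeR, against 0.0328% of genes, with 5 of them, and 6.57% of all genes, at an unadjusted p under 0.05 and 0 called by DESeq2. Without the filter on low counts, or without the scaling by trimmed mean of M values (TMM), no chaperone was called in excitatory neurons, and leaving out control 1 or control 2 left 1 call there. The summed level of the 10 genes was 242.7, 242.6, 205.1 and 189.8 CPM in excitatory neurons, 298.1, 277.1, 237.3 and 214.6 CPM in inhibitory neurons, and 333.8, 395.3, 261.5 and 245.6 CPM in ODCs.

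In the sparser populations the genotypes were ordered for fewer chaperones. Microglia gave 137 to 197 UMIs per library over all 10 genes and 286.4, 301.3, 276.6 and 270.3 CPM, lower in both CrT-KO libraries but within a narrow range. There 3 of 10 chaperones had both CrT-KO libraries below both controls, and 1 of the 6 that were tested, beside 17.1% of all genes tested. Hspa4l had the opposite order, with 27.2 and 22.9 CPM in the controls and 39.3 and 42.3 CPM in the CrT-KO libraries, on 13 to 24 UMIs. Oligodendrocyte precursor cells (OPCs) held 43 to 129 UMIs per library, 275.8, 243.7, 210.1 and 142.0 CPM, with 6 of 10 chaperones ordered that way and 4 of the 5 tested, beside 17.4% of genes. Hspa8 there was counted 11, 16, 9 and 2 times, and Hsp90ab1 22, 26, 13 and 10 times. Astrocytes (44 to 125 UMIs) had 4 of 10 and 1 of the 4 tested, beside 16.4%, and endothelial cells and pericytes (29 to 58 UMIs) 2 of 10 and 0 of the 1 tested, beside 15.1%. None of the 6, 5, 4 and 1 chaperones tested in microglia, OPCs, astrocytes and endothelial cells was called by edgeR, where 0.0412%, 0.0344%, 0.0199% and 0% of all genes were called. DESeq2 called 0 of them too, and 0, 1, 0 and 0 had an unadjusted p under 0.05 with edgeR.

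Several measured quantities moved with these values, and their part in the result was not tested. CrT-KO 2, the library with the fewest UMIs per nucleus, was below CrT-KO 1 for 8 of 10 chaperones in excitatory neurons, 8 in inhibitory neurons and 8 in ODCs, and for 5 in microglia, 7 in OPCs, 4 in astrocytes and 3 in endothelial cells and pericytes. Control 2 was below control 1 for 5, 9 and 4 of 10 in the first 3 of these. The summed level of 14 immediate-early genes was lowest in that library too, at 165.8, 156.3, 158.0 and 118.3 CPM in excitatory neurons, with 59.2, 58.4, 54.4 and 43.2 CPM in ODCs. Ribosomal protein transcripts differed slightly in the direction of the chaperones, at 1034, 1050, 1008 and 1001 CPM in excitatory neurons, and 13 mitochondrially encoded genes summed to 254 to 294 CPM there without order by genotype. In inhibitory neurons the mitochondrially encoded sum was 785, 739, 680 and 618 CPM, lower in both CrT-KO libraries. Neuronal transcripts found in ODCs, a measure of free RNA, summed to 1331, 1499, 1699 and 1607 CPM against 10421 to 11150 CPM in excitatory neurons. They were higher in both CrT-KO libraries than in both controls.

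Gene length moved with the genotype difference as well. Among the other genes tested in excitatory neurons the median log2 fold change was -0.09 for genes under 5 kb, -0.04 for 5 to 10 kb, -0.02 for 10 to 20 kb, -0.01 for 20 to 50 kb and 0.02 over 50 kb. Most chaperone genes are short: Hspe1 spans 3.18 kb, Dnajb1 4.46, Hsp90ab1 5.50, Hspa8 9.10, Hspd1 10.4, Hsp90aa1 12.1, Dnaja1 15.0, Hspa9 16.9, Hsph1 22.1 and Hspa4l 51.6 kb. Of the other genes of 5 to 10 kb, the class of Hspa8 and Hsp90ab1, the middle 50% lay between -0.19 and 0.11. Hspa4l, the longest, and Hspa9 were within the middle 50% of genes of their own length class in excitatory neurons. Hsph1 and each of the other chaperones were below that of their class. In inhibitory neurons Hspa4l (-0.21) was also below the middle 50% of its class, which began at -0.06. Among the other genes tested in ODCs the class medians were -0.11, -0.01, 0.003, -0.008 and 0.004, from the shortest class to the longest.

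**Figure D3:**
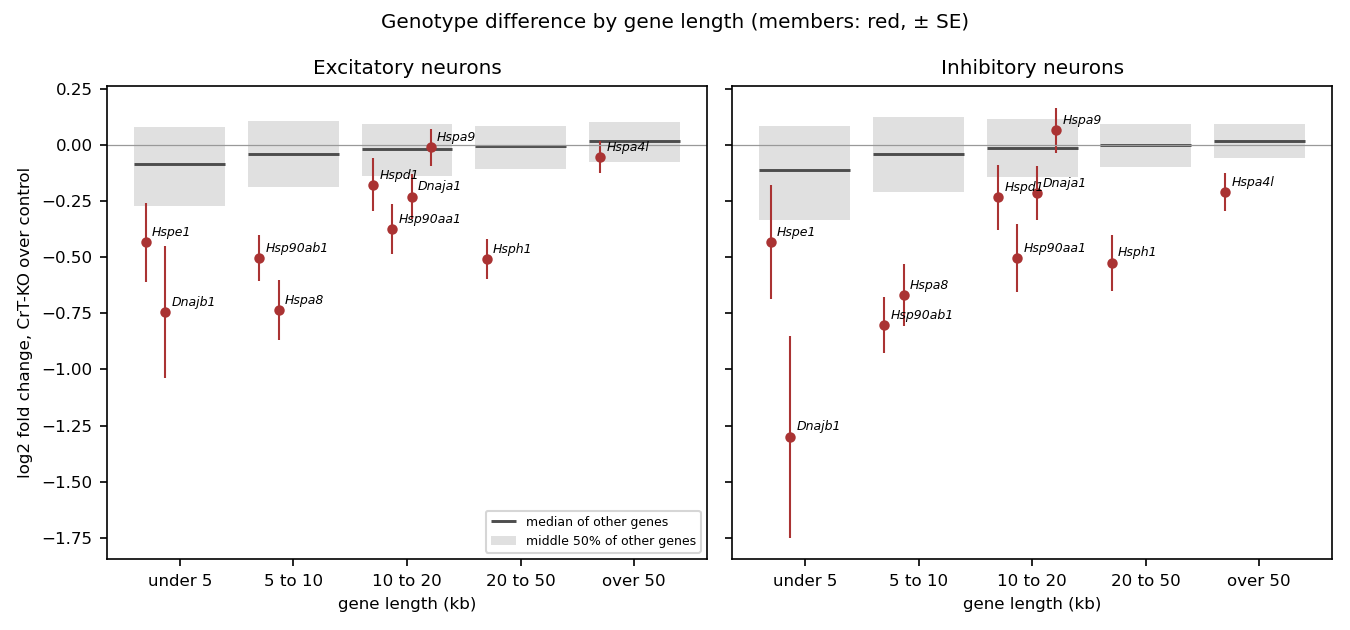
Log2 fold change (CrT-KO minus control) against gene length class in kb, for excitatory and inhibitory neurons. Grey boxes span the middle 50% of the other genes tested with a line at their median, and red points are chaperone genes ± SE. The medians run from -0.09 (under 5 kb) to 0.02 (over 50 kb) in excitatory neurons, where all chaperones but Hspa4l and Hspa9 lie below the boxes of their classes. In inhibitory neurons all but Hspa9 do.

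The levels of the 10 genes across populations are a different contrast from that between genotypes, and they could be tested with the library as a block. The block does not remove a population difference that itself depends on genotype. These levels are shares of the UMIs of each population and not amounts per nucleus. Excitatory neurons had less Hspa8 than inhibitory neurons in 4 of 4 libraries (log2 difference -0.30 ± 0.06 SE, edgeR adjusted p = 0.000369), less Hspa9 (-0.29 ± 0.04, adjusted p = 2.11e-05), less Hspd1 (-0.20 ± 0.07, adjusted p = 0.0207) and less Hspe1 (-0.38 ± 0.12, adjusted p = 0.015). Hsph1 was the reverse, higher in excitatory neurons in 4 of 4 libraries (0.30 ± 0.06, edgeR adjusted p = 0.000319). Hsp90ab1 was lower in excitatory neurons by -0.14 ± 0.06 (edgeR adjusted p = 0.0735), a call lost with DESeq2, without the low-count filter, with doublets kept, or without control 1 or control 2. Hspd1 lost its call with DESeq2 (adjusted p = 0.171) and without control 1, and Hspe1 with DESeq2 (adjusted p = 0.152). Hence 6 of 10 chaperones differed between these neuron types, a share close to the 61.8% of all genes that did. The inhibitory sums include the nuclei resembling medium spiny neurons, which were not tested apart. There Hsph1 averaged 29.3 CPM against 26.0 in excitatory neurons, while PV-like, SST-like and VIP-like nuclei averaged 19.4, 22.7 and 17.6. Hspd1 was near level (12.4 against 12.5). Hspa8 (20.1 against 15.2), Hsp90ab1 (29.8 against 24.1), Hspe1 (3.28 against 2.92) and Hspa9 (34.1 against 29.9) kept the pooled direction.

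Excitatory neurons and ODCs differed for 6 of 10 chaperones, beside 73.9% of all genes. As shares of all UMIs, ODCs had more of both cytosolic HSP90 genes and of Hspa8, with log2 differences (excitatory minus ODC) of -1.06 ± 0.12 for Hsp90aa1 (edgeR adjusted p = 5.8e-09), -0.998 ± 0.10 for Hsp90ab1 (adjusted p = 9.2e-10) and -0.998 ± 0.11 for Hspa8 (adjusted p = 2.32e-09), each in 4 of 4 libraries. They also had a larger share of the chaperonin, Hspd1 at -0.57 ± 0.14 (edgeR adjusted p = 0.000534) and Hspe1 at -0.82 ± 0.25 (adjusted p = 0.00443). ODC nuclei held fewer UMIs, with library medians of 1220 to 1416 against 7317.5 to 8855.5 in excitatory neurons. Hsp90ab1 was detected in 6.21 to 12.1% of ODC nuclei and 12.4 to 21.7% of excitatory nuclei. For Hspa8 it was 3.14 to 7.24% and 7.16 to 15.4%, so the larger shares do not mean more UMIs per nucleus. Hspa4l alone was higher in excitatory neurons among the called genes, by 1.04 ± 0.10 (edgeR adjusted p = 2.85e-10, 4 of 4 libraries). Hsph1 did not pass the test (0.06 ± 0.11, edgeR adjusted p = 0.652), and without TMM scaling its direction turned to -0.28. ODCs and microglia differed for 4 of 8 chaperones tested, beside 62.3% of all genes. Hsp90aa1 was higher in ODCs by 1.85 ± 0.26 (edgeR adjusted p = 2.85e-09, 4 of 4 libraries), Hsph1 by 1.07 ± 0.23 (adjusted p = 4.6e-05, 4 of 4), Hspa4l by 0.80 ± 0.20 (adjusted p = 0.000384, in 2 of 4 libraries by CPM) and Dnaja1 by 0.44 ± 0.23 (adjusted p = 0.0869, 3 of 4). By CPM Hspa4l was higher in ODCs than in microglia in both controls (39.7 and 64.2 against 27.2 and 22.9). It was lower in both CrT-KO libraries (37.4 and 37.0 against 39.3 and 42.3). The call of Hspa4l was lost without control 2, and that of Dnaja1 without any of control 1, control 2 or CrT-KO 1, with DESeq2, without TMM scaling or with at least 1000 UMIs per nucleus. Without TMM scaling the median of all genes moved by -0.15, -0.35 and -0.35 in these 3 comparisons and the chaperones called went from 6, 6 and 4 to 8, 8 and 4. Of these chaperone calls, 1, 1 and 4 were higher in the first population with TMM scaling, and 1, 1 and 3 without it. Over all genes called, the share higher in the first population fell from 48.7% to 28.9%, 52.1% to 37.4% and 48.6% to 28.9%.

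**Figure D4:**
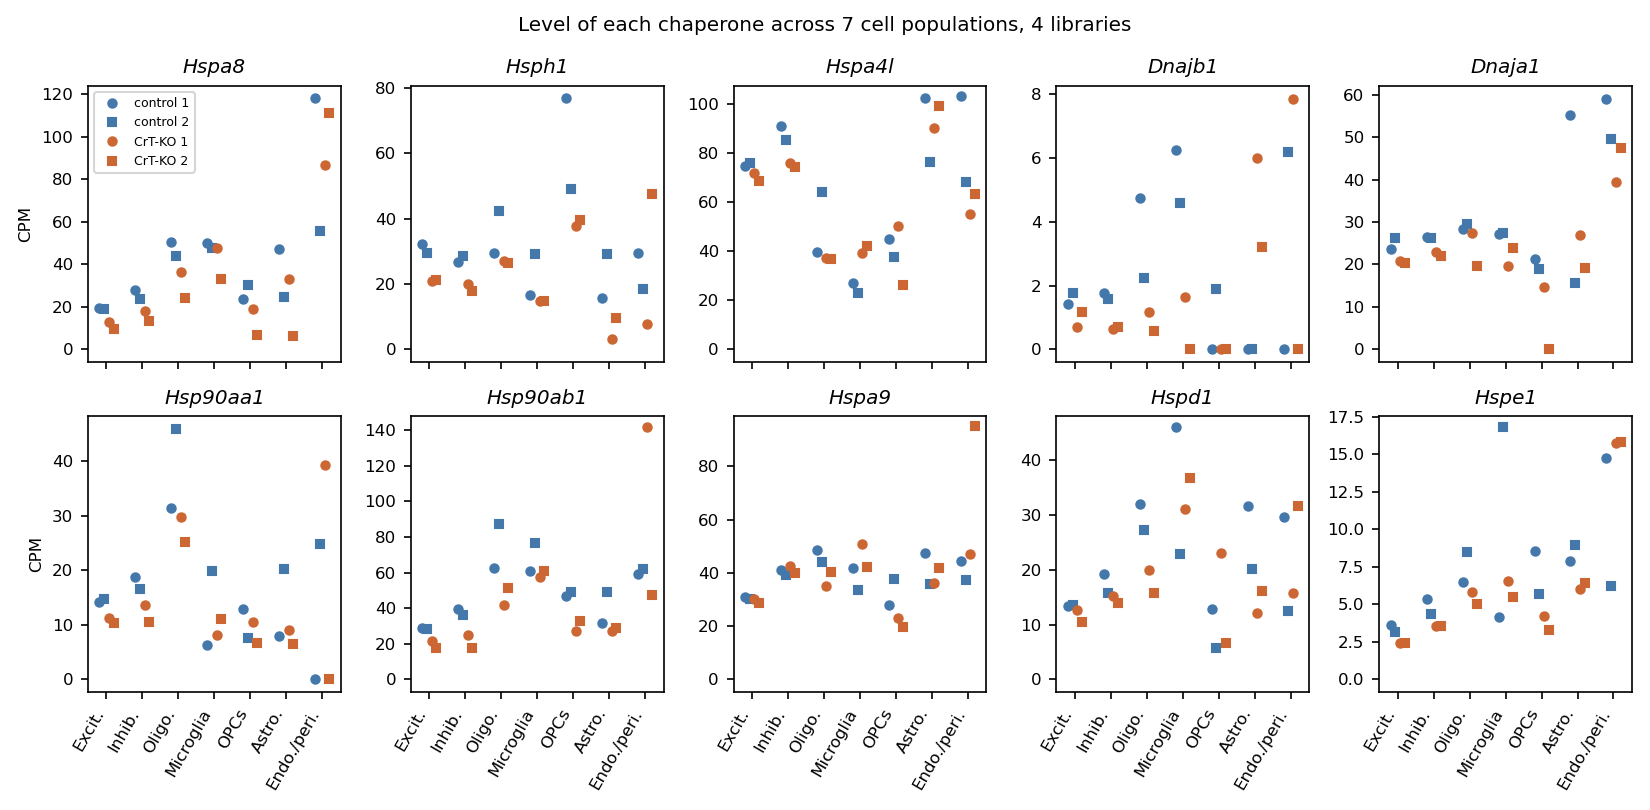
CPM of each chaperone gene in 7 cell populations, 1 panel per gene and 1 point per library (control and CrT-KO). Hspa8 and Hsp90ab1 have their lowest mean over the 4 libraries in excitatory neurons, although Hspa8 in CrT-KO 2 is lower in OPCs (6.60 CPM) and astrocytes (6.42 CPM) than in excitatory neurons (9.39 CPM), and points scatter widely in endothelial cells and pericytes, where libraries hold 29 to 58 UMIs in all.

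Ranked by mean CPM over the 4 libraries, neighbouring populations had overlapping library ranges in all but 3 of 60 pairs. The exceptions were Hspa8, higher in endothelial cells and pericytes than in microglia, Hspd1, higher in inhibitory than in excitatory neurons, and Hspa9, higher in astrocytes than in excitatory neurons. Overlap of the ranges does not show that neighbours are alike, as Hspe1 and Hsp90ab1 passed the library-blocked test between inhibitory and excitatory neurons, neighbours whose ranges overlapped.

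Among interneurons Hspa4l and Hspa9, a cytosolic HSP110 and the mitochondrial HSP70, were higher in PV-like nuclei than in SST-like and VIP-like nuclei. LAMP5-like nuclei were not tested against PV-like nuclei. There Hspa4l was below PV-like nuclei in every library, at 51.9 CPM or less. Hspa9 was at 37.9, 39.9, 47.2 and 52.99 CPM there in controls 1 and 2 and CrT-KO 1 and 2. It exceeded PV-like nuclei in CrT-KO 2 only. Hspd1 averaged 22.4 CPM in LAMP5-like nuclei against 20.3 in PV-like nuclei, on 11 to 16 UMIs per library. It was higher in control 1 and CrT-KO 2 and lower in control 2 and CrT-KO 1. Hspa4l was at 120.3, 118.6, 103.9 and 95.1 CPM in PV-like nuclei and 79.4, 76.0, 70.0 and 84.9 CPM in SST-like nuclei (controls 1 and 2, CrT-KO 1 and 2), higher in PV-like nuclei in every library (0.46 ± 0.09 SE, edgeR adjusted p = 0.000128). VIP-like nuclei had 62.8, 67.6, 73.9 and 63.9 CPM, again lower in every library (0.60 ± 0.10, edgeR adjusted p = 5.88e-05). Hspa9 was at 57.2, 48.8, 64.999 and 51.0 CPM in PV-like nuclei, above SST-like nuclei at 38.9, 37.2, 44.2 and 38.3 CPM (0.45 ± 0.10, edgeR adjusted p = 0.00103) and above VIP-like nuclei at 36.6, 30.8, 34.8 and 31.3 CPM (0.63 ± 0.14, edgeR adjusted p = 0.000529). Hspd1 was higher in PV-like than in SST-like nuclei in 4 of 4 libraries (0.45 ± 0.17, edgeR adjusted p = 0.0461), a call lost without control 2, without CrT-KO 1 or with DESeq2 (adjusted p = 0.402). Dnaja1 was lower there in 4 of 4 (-0.43 ± 0.15, adjusted p = 0.0269, edgeR), a call lost without CrT-KO 1 or with DESeq2 (adjusted p = 0.324). Hspa8 was lower in PV-like than in VIP-like nuclei (-0.44 ± 0.18, edgeR adjusted p = 0.0619), a call lost in 8 alternatives, among them DESeq2 and leaving out control 1, CrT-KO 1 or CrT-KO 2. In all, 4 of 9 chaperones differed between PV-like and SST-like nuclei beside 40.7% of all genes, and 3 of 8 between PV-like and VIP-like nuclei beside 44.3%. Without TMM scaling the median of all genes moved by 0.10 in the second of these, and all 3 called chaperones were then higher in PV-like nuclei. Hspa8 was not among those 3, and Hspd1 was.

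**Figure D5:**
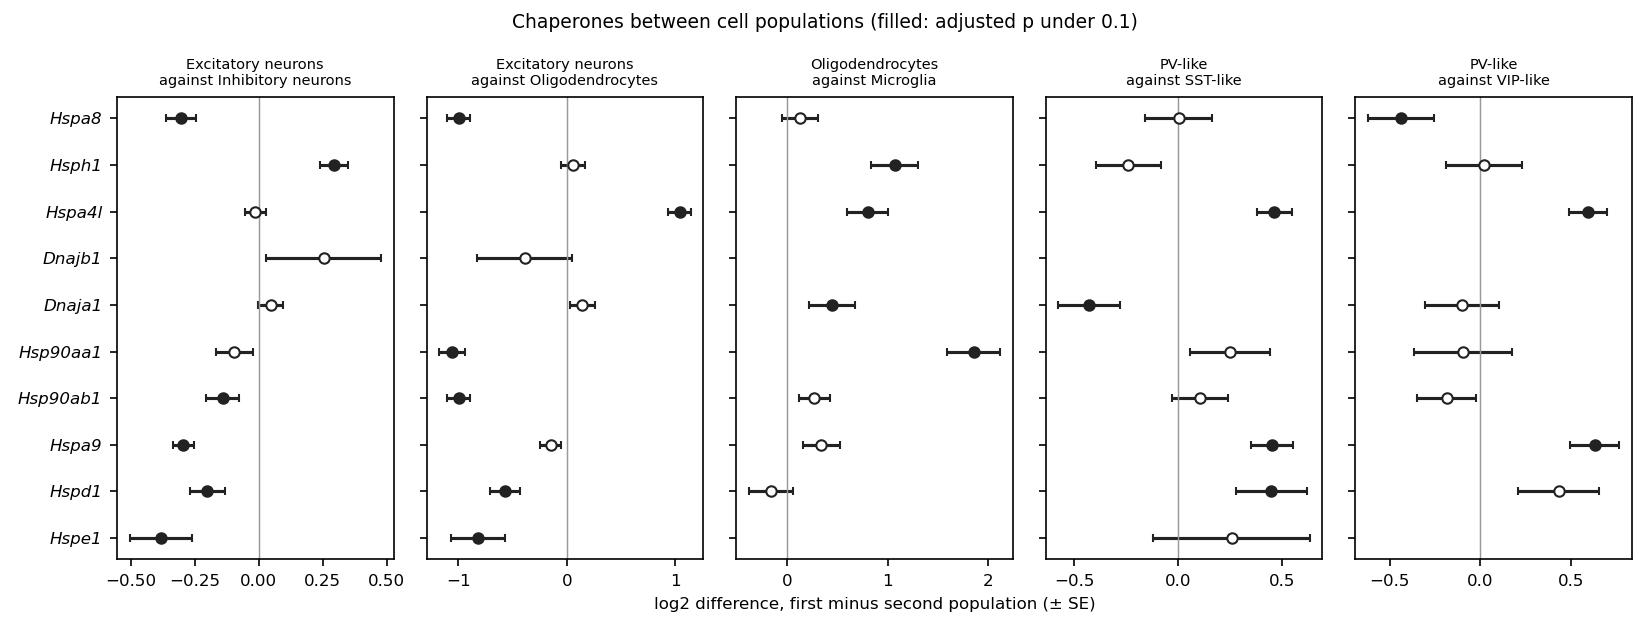
Log2 difference ± SE of each chaperone gene in 5 comparisons between populations (first minus second, library as block, 4 libraries). Filled points have an adjusted p under 0.1. Hspa4l and Hspa9 lie above 0 in both PV-like comparisons, and Hsp90aa1 has the largest difference, 1.85 between oligodendrocytes and microglia.

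The genes whose level most resembled the summed level of the 10 chaperones, by Pearson's r of log2(CPM + 1) over 28 sums (7 populations in 4 libraries, which share animals and depth) among 5587 genes with at least 10 CPM on average in every population, were Ubb (r = 0.83), Atp6v0c (0.81), Nbeal1 (0.79), Frs2 (0.79) and Rheb (0.79). Ubb encodes polyubiquitin and Atp6v0c a subunit of the vacuolar proton pump. Ubb averaged 13.2 CPM in excitatory neurons, 18.1 in inhibitory neurons, 36.7 in ODCs, 54.4 in microglia and 159.0 in endothelial cells and pericytes. The chaperones did not share 1 profile. Against the sum of the others, r was 0.82 for Hspa8 at most but -0.13 for Hspa4l, -0.20 for Hsph1 and -0.23 for Hsp90aa1.

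Around the 10 chaperones, 65 further genes of the folding network were listed in 8 groups, and none was called by genotype in any of the 7 populations. In excitatory neurons 59 of them were tested with a median log2 fold change of -0.05, and 9 had an unadjusted p under 0.05 with edgeR, beside 9.11% of all genes. The same held for 8 of 59 in inhibitory neurons, beside 5.49% of all genes, and for 5 of 51 in ODCs, beside 6.57%. DESeq2 called 0 of the 65 in each population. The HSP90 co-chaperones (11 tested) had a median of -0.11 in excitatory and -0.24 in inhibitory neurons, and the chaperonin TRiC and prefoldin genes (14 tested) of -0.18 and -0.24. The J proteins (10 tested) were at -0.02 and 0.02, and mitochondrial folding and proteolysis genes (10 tested) at -0.01 in both. The most counted gene of each group gives the scale. Hsf2, a heat shock factor, was at 24.9, 26.5, 21.0 and 22.8 CPM in excitatory neurons (-0.19 ± 0.10 SE), and Hspa12a, a distant HSP70, at 108.2, 106.0, 89.0 and 94.0 CPM (-0.18 ± 0.07). Dnajc6, the J protein auxilin that works with HSC70 in clathrin uncoating, stood at 343.8, 355.2, 356.3 and 352.2 CPM (0.07 ± 0.07). Bag4, an exchange factor, Pfdn1, a prefoldin subunit, and Clpb, a mitochondrial disaggregase, had -0.10 ± 0.10, 0.03 ± 0.08 and -0.05 ± 0.08. Both CrT-KO libraries were below both controls for Hsf2, Hspa12a, Bag4 and Clpb. The same order held for Cryab of the small heat shock proteins, at 0.934, 1.64, 0.716 and 0.780 CPM. Over all genes tested in these neurons the share with this order was 29.5%.

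The most counted genes of the remaining 2 groups, Cryab and Fkbp5, were called in ODCs under some alternative settings only. Cryab encodes alpha B-crystallin, a small heat shock protein abundant in ODCs, and gave 37.9, 84.8, 34.5 and 40.4 CPM there, with control 2 far above the other libraries (-0.76 ± 0.29 SE, edgeR adjusted p = 0.607). Fkbp5 encodes the HSP90 co-chaperone FKBP51, a glucocorticoid-responsive gene, and gave 194.1, 378.8, 542.2 and 537.7 CPM, with both CrT-KO libraries above both controls and the controls apart from each other (0.89 ± 0.21, edgeR adjusted p = 0.181). Its excitatory values of 85.0, 99.2, 101.2 and 98.6 CPM overlapped.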

How the data were processed

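Nuclei were sorted from the right cortex and profiled with the 10x Genomics 3' chemistry. The deposited values are raw UMI counts per gene and nucleus, which the authors made with Cell Ranger (3.1.0) on GRCm38/mm10, intronic reads included. The submitters' processing notes also name FastQC and Seurat (3.1.4). Whether counting used the strand is not given in the sources used here.

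All 35694 deposited barcodes were used. Predicted doublets, 2.91 to 4.17% of each library, were removed, and nuclei were clustered with scanpy 1.11.5 (3000 variable genes, 30 principal components, Leiden resolution 1) with the 10 chaperones and 65 pathway genes left out of the variable genes. Clusters were named from fixed marker lists (at least 3 detected markers), with score limits set after the data were seen, so names and shares may differ from those of the study. The "-like" subclasses came from clustering neurons again in the same way. Of 52 subclusters 17 were left unnamed, so the subclasses do not cover all neurons. UMIs were summed per library and population, because nuclei of 1 animal are not replicates; the study's rank-sum test over nuclei was not used. Depth was 51507483 to 65240843 UMIs per library, and sparse populations carry wide errors.

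Sums were fitted with edgeR 4.0.16 (filterByExpr, TMM, glmQLFit and glmQLFTest, Benjamini-Hochberg over all genes tested, threshold 0.1 as in the study), by genotype in each population and between populations with the library as block. Alternatives were DESeq2 1.42.0, no TMM factor, no low-count filter, a replicate block, each library left out, at least 1000 UMIs per nucleus, doublets kept, chaperones kept among the variable genes, and a threshold of 0.05. The code was tested on simulated data. Gene positions and lengths came from GENCODE vM21 (GRCm38) and promoters from RefSeq (GRCm38.p6), where Hspa8, Hsp90aa1, Hsp90ab1 and Hspa9 had no entry. The 10 genes and all lists were chosen with earlier results of these data known. All 10 are named, with Slc6a8, any pathway gene called, the most counted uncalled gene of each group, and the 5 genes most like the summed level.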

Additional observations from a re-analysis of the deposited data

Results flagged for a closer look

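Hspa4l had both CrT-KO libraries above both controls in microglia (log2 fold change 0.71 ± 0.37 SE, on 13 to 24 UMIs per library) but below both in excitatory neurons (-0.06), inhibitory neurons (-0.21) and ODCs (-0.52). Hspa9 likewise was above both controls in microglia (0.33 ± 0.33, on 20 to 31 UMIs per library) and below both in excitatory neurons (-0.01), ODCs (-0.30) and OPCs (-0.60). Its sign was not stable, being negative in 1 of 12 settings in microglia and in 10 of 12 in excitatory neurons. Of the 12 neuronal subclasses, 3 had both CrT-KO libraries below both controls for Hspa9 and 2 had them above. These opposite orders drew attention, and the difference between populations was not tested. Groups of 2 libraries are too small for a search for outlying libraries.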

How the results depend on the processing

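Over the alternatives tried, 451 of 489 recomputed log2 fold changes of single chaperones by genotype moved by less than the spread between libraries, 38 moved by more, and no called one changed sign. The number of chaperones called by genotype was the less stable quantity. In excitatory neurons it was 2, and 0 without TMM factors, without the low-count filter or at a threshold of 0.05. In inhibitory neurons it was 2, and 1 with DESeq2, without TMM factors, with doublets kept or at 0.05. In ODCs it was 0, and 1 with doublets kept. Leaving out each library gave 1 to 3 in excitatory neurons (1 without control 1 and without control 2), 1 to 2 in inhibitory neurons (1 without CrT-KO 2) and 0 to 2 in ODCs (2 without control 1, 1 without CrT-KO 2). Hsp90ab1 in inhibitory neurons was called in 11 fits, Hspa8 and Hsph1 in excitatory neurons in 8 each and Hspa8 in inhibitory neurons in 6. Pathway genes called were 0 in each population, and leaving out each library gave 0 to 1 in excitatory neurons (1 without CrT-KO 2), 0 to 1 in inhibitory neurons (1 without control 1) and 1 to 2 in ODCs, where 1 was also called with at least 1000 UMIs per nucleus or with doublets kept. These were Ahsa1, Stip1, Cryab and Fkbp5, of which Ahsa1 and Stip1 are named after their values were seen. The median of the chaperones tested in astrocytes, -0.31, was -0.53 without the low-count filter, -0.22 with at least 1000 UMIs and -0.74 to -0.081 with a library left out, and in OPCs -0.69, -0.67 to -0.52 (-0.52 without CrT-KO 2).

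With the replicate number as a replicate block, 4 chaperones were called in excitatory neurons, 4 in inhibitory neurons and 1 in ODCs, and 2, 1 and 1 pathway genes. The labels tie a number to no litter or day, and same-numbered libraries deviated together with correlations of -0.12 to 0.30 in the 7 populations.

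Between populations, 383 of 450 recomputed differences kept their direction and side of the threshold, 28 lost and 15 gained a call, and 24 changed sign, all of chaperones not called in that comparison. Without TMM factors, excitatory minus inhibitory was -0.101 for Dnaja1, excitatory minus ODC -0.202 for Dnaja1 and -0.28 for Hsph1 (then called), ODC minus microglia -0.224 for Hspa8, -0.082 for Hsp90ab1 and -0.012 for Hspa9, and PV-like minus VIP-like 0.0066 for Dnaja1 and 0.012 for Hsp90aa1. Hspa4l was 0.0092 without the low-count filter (excitatory minus inhibitory), Hspd1 0.028 with at least 1000 UMIs (ODC minus microglia), Hspe1 -0.020 with doublets kept (PV-like minus SST-like) and Hsp90aa1 0.0076 with the chaperones among the variable genes (PV-like minus VIP-like). With a library left out the range was -0.051 to 0.030 for Hspa4l between excitatory and inhibitory neurons, -0.056 to 0.19 for Hsph1 and -0.66 to 0.22 for Dnajb1 between excitatory neurons and ODCs, and -0.42 to 0.043 for Hspd1 between ODCs and microglia. It was -0.061 to 0.073 for Hspa8, -0.0043 to 0.17 for Hsp90ab1 and -0.10 to 0.69 for Hspe1 between PV-like and SST-like nuclei, and -0.56 to 0.12 for Hsp90aa1, -0.14 to 0.20 for Hsph1 and -0.25 to 0.045 for Dnaja1 between PV-like and VIP-like nuclei. The number of chaperones that differed between excitatory and inhibitory neurons was 6, and 3 with DESeq2. Between ODCs and microglia it was 4, and 2 to 5 with a library left out (2 without control 2). Between PV-like and SST-like nuclei it was 4, 2 with DESeq2 and 2 to 4 with a library left out (2 without CrT-KO 1). The cause of these changes was not tested. Depth limited endothelial cells and pericytes most, with 29 to 58 UMIs per library over all 10 chaperones and 1 of them tested.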
